A study of Homo sapiens with 2 samples.

Results

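Between 2 human ovarian cancer lines, one without BRCA1 and one with it, 32 genes were near silent in the first and measurable in the second. They were chosen from a table of 1806 genes that the authors had called different between the lines. A gene was taken where its mean was under 0.2 FPKM in the BRCA1 knockout line and at least 1 FPKM in the BRCA1 WT line. FPKM counts fragments relative to the length of the transcript and the size of the library, so levels of different genes can be set side by side. Of 43 rows that met both thresholds, 5 were left out by position (chromosome 18, chromosome 9 before base 80000000 and chromosome 12 before base 21000000) and 6 by gene symbol (solute carriers, zinc fingers, collagens, ADAMTS proteases, MAGE-A, SSX and HLA genes, PASD1 and NXPH2). Since both columns chose the genes, their differences between the lines are a description and carry no test here.

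The BRCA1 knockout sample, titled UWB, is the established cell line UWB1.289. It was derived from a serous ovarian tumour and has no working BRCA1, a tumour suppressor of homologous recombination repair. The partner, titled UWBBRCA and labelled WT, has BRCA1. Both were untreated and grown in the same mix of RPMI, MEGM and serum, and the labels give 1 sample of each. The labels do not say whether the partner is 1 clone, and BRCA1 status and any other difference between the lines cannot be told apart. Total RNA was depleted of ribosomal RNA and made into strand-specific libraries. BRCA1 itself was at 5.63 FPKM in the knockout line and at 22.0 FPKM in the WT line, so its transcript was lower but not absent. The values are the authors' means per line, with no spread given, and the depth of the libraries is unknown. Only called genes are in the table, so of 16 serous ovarian epithelial markers just 4 could be looked at: MUC16 was higher in the knockout line, and FOLR1, WT1 and ESR1 were lower, the last pair at 0.155 FPKM or less in both lines.

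Genes that are read in one cell and hardly at all in another are often those of tissue-specific programmes, and an ovarian tumour line normally keeps most genes of other tissues closed. Promoters of human genes fall into CpG-rich and CpG-poor kinds (a CpG pair is a C followed by a G). CpG-rich promoters serve most housekeeping and many developmental genes, and CpG-poor ones serve many genes of single tissues. Bulk RNA gives the average over all cells, so fewer expressing cells and less RNA per cell cannot be told apart. The genes below belong to no single pathway. They are described in turn as receptors, as adhesion, matrix and ligand genes, as nuclear and signalling genes, as genes of autophagy, chaperones, motors and muscle, as enzymes, and as the rest. These groups were formed after the values were seen.

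**Figure D1:**
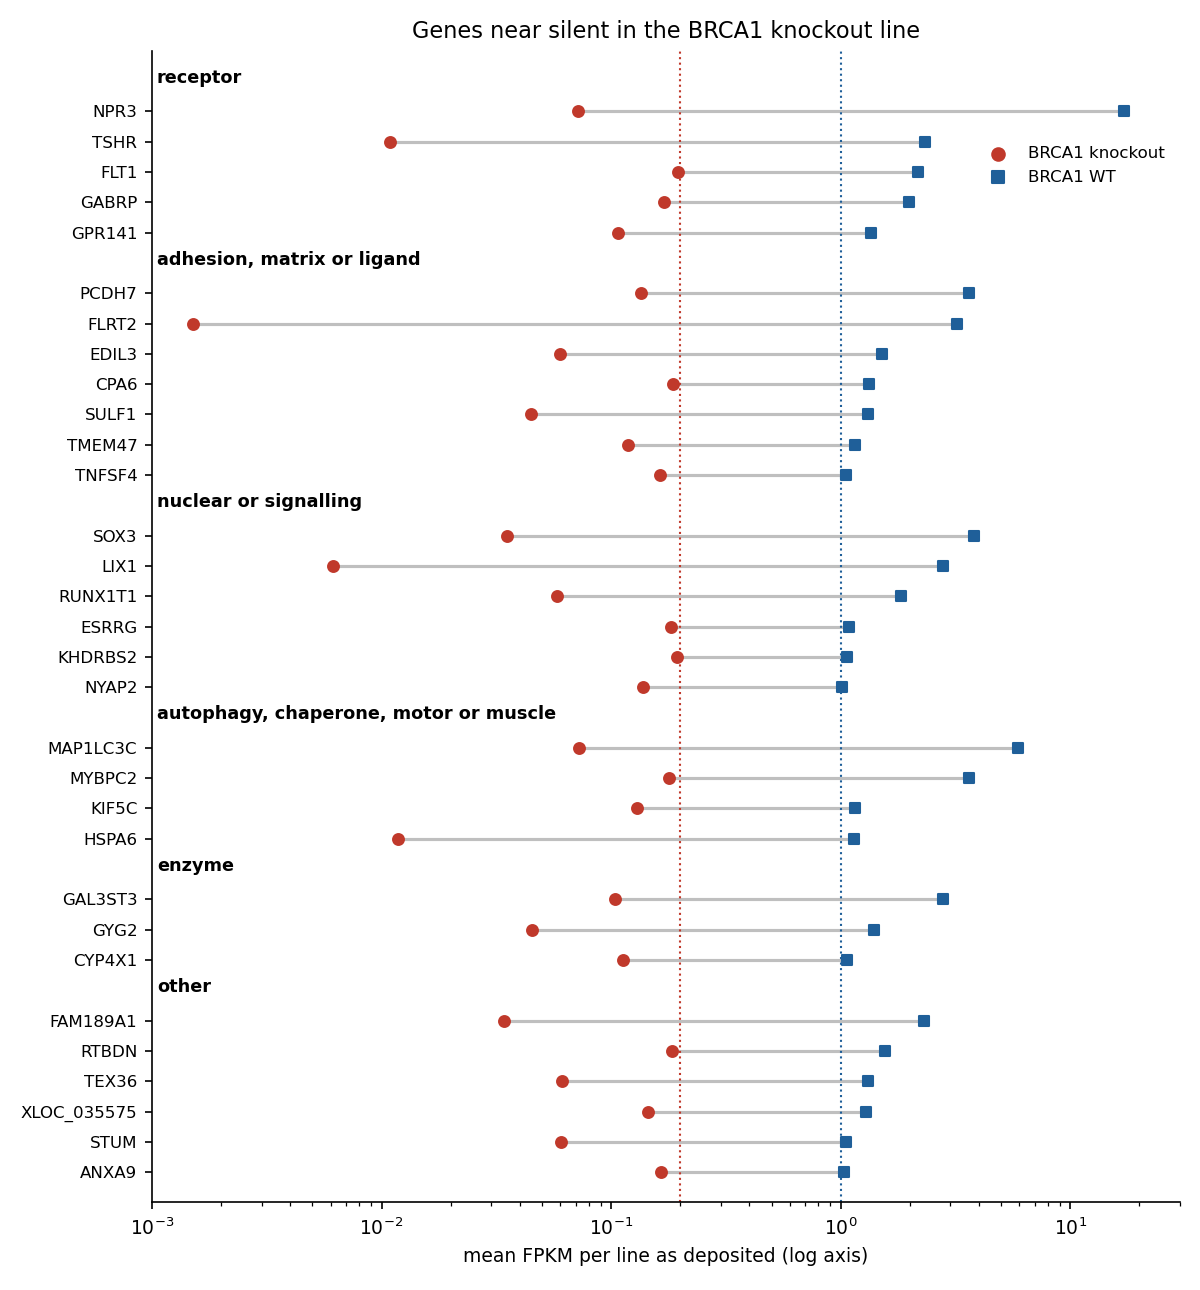
Mean FPKM of 31 of the 32 genes in the BRCA1 knockout line (red circles) and the BRCA1 WT line (blue squares) on a log axis, grouped by role, with the limits of 0.2 and 1 FPKM as dotted lines. NPR3 lies farthest right in the WT line at 17.2 FPKM, and FLRT2 farthest left in the knockout line at 0.00151 FPKM.

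To show what the promoters of the most abundant of these genes look like, the 150 bases before the transcription start are given for the 6 with the highest WT level among those with a printed window. They are reference sequence from RefSeq (GRCh38.p14), written 5′ to 3′ on the strand of the gene, with every CpG pair in capitals. NPR3 lies at chr5:32710499-32710648 on the plus strand, MAP1LC3C at chr1:241999099-241999248 on the minus strand, SOX3 at chrX:140505070-140505219 on the minus strand, PCDH7 at chr4:30720219-30720368 on the plus strand, FLRT2 at chr14:85529994-85530143 on the plus strand and TSHR at chr14:80955471-80955620 on the plus strand.
NPR3: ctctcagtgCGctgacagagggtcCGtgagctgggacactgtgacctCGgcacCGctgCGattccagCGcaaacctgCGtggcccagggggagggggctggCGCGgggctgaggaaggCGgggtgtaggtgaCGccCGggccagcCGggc
MAP1LC3C: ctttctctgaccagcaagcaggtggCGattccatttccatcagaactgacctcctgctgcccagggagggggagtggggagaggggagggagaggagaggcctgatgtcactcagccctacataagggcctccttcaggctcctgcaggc
SOX3: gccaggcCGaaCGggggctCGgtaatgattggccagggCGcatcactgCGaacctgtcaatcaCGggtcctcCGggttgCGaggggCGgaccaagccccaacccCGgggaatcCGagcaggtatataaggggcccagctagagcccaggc
PCDH7: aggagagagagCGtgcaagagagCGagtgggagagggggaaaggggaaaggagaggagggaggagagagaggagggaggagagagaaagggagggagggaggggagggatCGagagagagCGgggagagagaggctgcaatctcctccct
FLRT2: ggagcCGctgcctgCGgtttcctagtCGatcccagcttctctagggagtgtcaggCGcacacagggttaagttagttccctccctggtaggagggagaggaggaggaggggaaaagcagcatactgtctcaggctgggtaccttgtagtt
TSHR: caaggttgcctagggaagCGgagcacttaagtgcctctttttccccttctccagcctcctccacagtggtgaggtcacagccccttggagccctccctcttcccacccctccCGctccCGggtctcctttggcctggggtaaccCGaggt
The 6 stretches are unlike in CpG content. NPR3 has 13 CpG pairs and SOX3 has 11, while PCDH7, FLRT2 and TSHR have 4 each and MAP1LC3C has 1.

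The level of these genes in the WT line was mostly low. Their median was 1.46 FPKM there, against 2.25 FPKM over all listed genes. Just 2 genes, NPR3 and MAP1LC3C, reached 5 FPKM, another 10 lay between 2 and 5 FPKM, and 20 lay between 1 and 2 FPKM. In the knockout line none was listed at 0. There 15 of the 32 were under 0.1 FPKM and 4 under 0.02 FPKM, namely FLRT2, LIX1, TSHR and HSPA6. The ratio of WT to knockout FPKM had a median of 21.0 and a range from 5.51 for KHDRBS2 to 2123 for FLRT2. It was at least 10-fold for 21 genes, where 6.87% of listed genes above 0 in both lines were that much lower in the knockout line, and at least 100-fold for 6. On the scale of log2(FPKM + 1), which compresses low values, the median difference (knockout minus WT) was -1.18, against 0.20 for all listed genes and -0.99 for the 839 that were lower. On that scale 21 of the 32 were at least 2-fold lower, beside 22.5% of all listed genes. An adjusted p of at most 0.01 stood in the authors' deposited table for 31 of the 32, beside 58.3% of listed genes in either direction. The exception was RTBDN, at 0.0119. These shares are given for scale only, since the rule fixed the direction and a large part of the size.

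**Figure D2:**
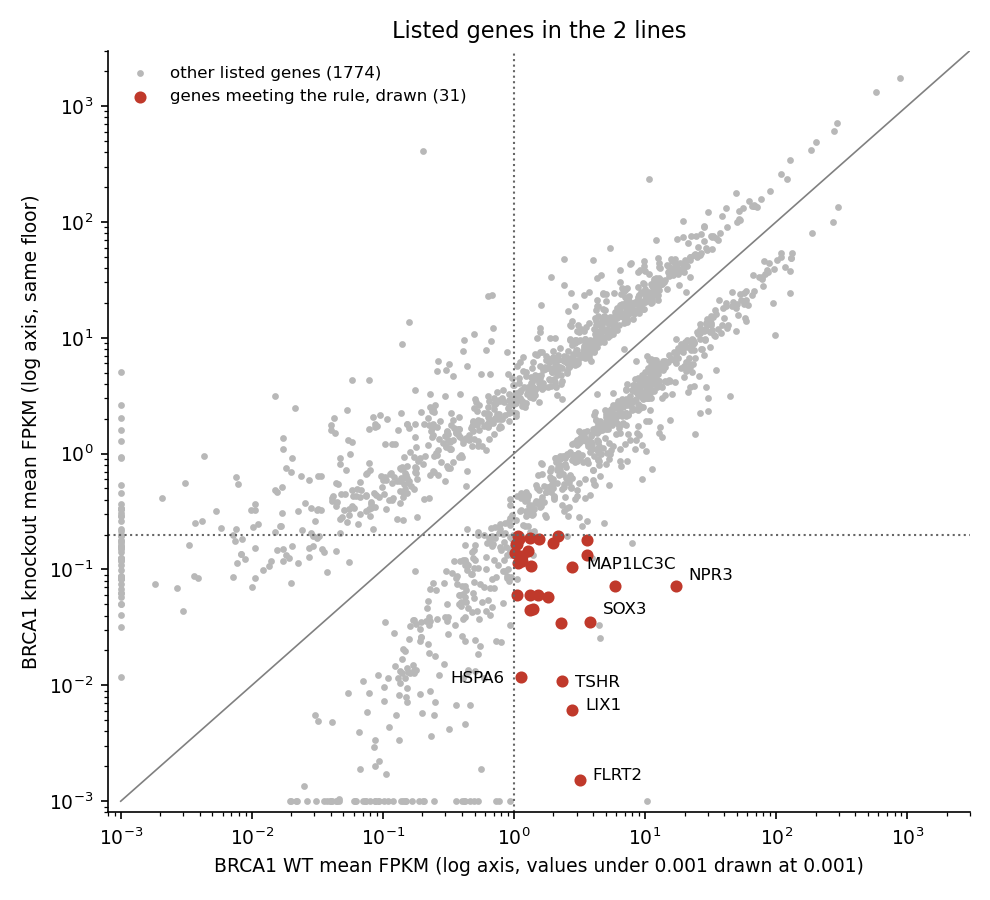
Mean FPKM of the listed genes (1 of the 32 is not drawn) in the BRCA1 WT line (x axis) and the BRCA1 knockout line (y axis), both log axes, with values under 0.001 drawn at 0.001 and the line of equal values drawn in grey. The 31 genes drawn in red fill the corner under 0.2 and from 1 FPKM on, and the grey points in that corner are the 11 rows left out by position or symbol.

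The limits of the rule cut through a continuous range. Just inside the knockout limit were FLT1 at 0.196 FPKM, KHDRBS2 at 0.194 and CPA6 at 0.186. Just outside it were GRAMD2A at 0.204 FPKM, CATSPERG at 0.210 and TPH2 at 0.215, which had 1.42, 1.33 and 1.43 FPKM in the WT line. Just inside the WT limit were NYAP2 at 1.01 FPKM, ANXA9 at 1.03 and TNFSF4 at 1.05. Just outside it were ADGRG5 at 0.968 FPKM, GPR37 at 0.959 and PALM3 at 0.955. The genes at the edges are thus close in level to others that the rule does not take.

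Among the receptors, NPR3 stood far above the rest in the WT line. NPR3 (ENSG00000113389, chromosome 5, 32689070 to 32791724, plus strand, GRCh38) encodes the clearance receptor for natriuretic peptides, which takes up the peptides that the guanylyl cyclase receptors NPR1 and NPR2 signal for. It had a mean of 0.0716 FPKM in the knockout line and 17.2 FPKM in the WT line, a 241-fold ratio. For NPR3 the authors' deposited table lists a log2 fold change of -7.23 and an adjusted p of 2.12e-35, the rank of 2 among all listed genes. No other gene of the 32 came within 10 FPKM of its WT level. Of 19 names in a list of natriuretic peptide and cyclic GMP signalling, 6 had a row, of which 4 were lower in the knockout line and 2 higher. NPR1, a receptor that makes cyclic GMP, had 1.56 FPKM against 4.40 in the WT line. MME, the peptidase neprilysin that degrades natriuretic peptides, had 2.25 against 6.56 FPKM, and FURIN, a protease that cleaves pro-peptides, was higher at 34.4 against 15.1. PDE2A, a phosphodiesterase that cyclic GMP activates, was higher too, at 2.01 against 0.108 FPKM, and PDE3A was listed at 0 in the knockout line and at 0.0614 FPKM in the other. NPR2 and the peptide genes of the list had no row and are not analysed here.

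TSHR, the thyrotropin receptor of thyroid follicle cells, had 0.0109 FPKM in the knockout line and 2.33 FPKM in the WT line, a ratio of 213. For TSHR the authors' deposited table lists a log2 fold change of -6.93 and an adjusted p of 4.56e-22. FLT1, the VEGF receptor also called VEGFR1, had 0.196 against 2.17 FPKM, a ratio of 11.1. For FLT1 the authors' deposited table lists a log2 fold change of -3.64 and an adjusted p of 2.47e-14. Its direction was opposite to that of KDR, the main signalling receptor for VEGF on endothelial cells, which had 3.15 FPKM in the knockout line and 0.298 FPKM in the WT line. The more abundant VEGF receptor of the 2 was therefore KDR without BRCA1 and FLT1 with it. Of 10 endothelial markers on a list chosen with earlier results of these data known, 3 had a row. All were higher in the knockout line: KDR, then CDH5 (13.4 FPKM against 4.64) and EGFL7 (26.0 FPKM against 7.03). The part of cells of endothelial character in the FLT1 and KDR values was not tested.

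GABRP, the pi subunit of GABA-A receptors, which is found mainly outside the brain, had 0.170 FPKM in the knockout line and 1.98 FPKM in the WT line. For GABRP the authors' deposited table lists a log2 fold change of -3.49 and an adjusted p of 1.8e-11. Of 19 annotated GABA-A subunit genes 4 had a row, and they were divided. GABRB2 was lower as well, at 1.28 against 3.54 FPKM, while GABRE was at 7.30 against 2.82 FPKM and GABRA5 at 1.38 against 0.434 FPKM. GPR141, an orphan G protein-coupled receptor, had 0.107 against 1.35 FPKM. For GPR141 the authors' deposited table lists a log2 fold change of -3.20 and an adjusted p of 0.000324. It overlaps EPDR1 on the same strand, so reads there can be assigned to either gene.

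The adhesion, matrix and ligand genes held the lowest knockout value of all. FLRT2 (ENSG00000185070, chromosome 14, 85530144 to 85654428, plus strand) encodes a leucine-rich repeat membrane protein that binds UNC5 receptors and latrophilins in cell adhesion and axon guidance. It had 0.00151 FPKM in the knockout line and 3.21 FPKM in the WT line. For FLRT2 the authors' deposited table lists a log2 fold change of -8.46 and an adjusted p of 4.54e-19. The log2 ratio of its FPKM means was -11.05, the widest gap of the 32 between that ratio and the authors' fold, at 2.59. For 25 of the 32 the gap was at most 0.5. A ratio over a value this close to 0 is not well determined, and no count of fragments is at hand to bound it.

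Partners of FLRT2 went both ways. Of 27 names in a list of FLRT proteins, their receptors and other guidance genes, 7 had a row, 4 higher and 3 lower. UNC5D, a binding partner, had 0.0700 FPKM in the knockout line against 0.592 in the WT line. UNC5A had 3.28 against 0.230 FPKM and UNC5B 0.145 against 0.0436. The guidance ligand SLIT3 had 0.0515 against 0.825 FPKM. ADGRL3, a latrophilin, had 3.73 against 2.09 FPKM and TENM2, a teneurin, 0.414 against 0.227. These last 2 would turn lower if the knockout column were centred, that is, divided by the median ratio over genes that reach 1 FPKM in each line. FLRT2 was the single FLRT gene with a row.

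PCDH7, a protocadherin of cell-cell adhesion, had 0.135 FPKM in the knockout line and 3.62 FPKM in the WT line, a ratio of 26.9. For PCDH7 the authors' deposited table lists a log2 fold change of -4.53 and an adjusted p of 4.46e-17. Of 12 non-clustered protocadherin genes 1 other had a row, PCDH19, lower at 5.76 against 12.3 FPKM. EDIL3, a secreted protein that binds integrins on endothelial cells, had 0.0597 against 1.52 FPKM. For EDIL3 the authors' deposited table lists a log2 fold change of -4.42 and an adjusted p of 7.53e-11. TMEM47, a membrane protein of cell junctions, had 0.118 against 1.16 FPKM, and CPA6, a secreted carboxypeptidase, 0.186 against 1.33 FPKM. For CPA6 the authors' deposited table lists a log2 fold change of -2.66 and an adjusted p of 6.58e-05. Its relative CPA4 was lower too, at 0.725 against 4.04 FPKM.

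SULF1 and SULF2 stood in opposite order in the lines. Both encode extracellular endosulfatases, which remove 6-O-sulfate groups from heparan sulfate and so alter how growth factors bind to it. SULF1 had 0.0449 FPKM in the knockout line and 1.32 FPKM in the WT line, a ratio of 29.4, while SULF2 had 8.79 FPKM in the knockout line and 0.141 FPKM in the WT line. For SULF1 the authors' deposited table lists a log2 fold change of -4.31 and an adjusted p of 4.03e-08. TNFSF4, the OX40 ligand that costimulates T cells, had 0.164 FPKM against 1.05, in contrast to the other TNF superfamily ligands in the table. Of 18 such genes 6 had a row, and the 5 besides TNFSF4 were higher in the knockout line, where 46.5% of all listed genes were lower. TNFSF18, the GITR ligand that lies next to TNFSF4 on chromosome 1, had 5.59 against 2.61 FPKM, and TNFSF9, the 4-1BB ligand, 2.69 against 0.987. The others were TNFSF15 at 2.89 against 0.923 FPKM, TNFSF12 at 1.24 against 0.286 and TNFSF11 at 0.369 against 0.0818.

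**Figure D3:**
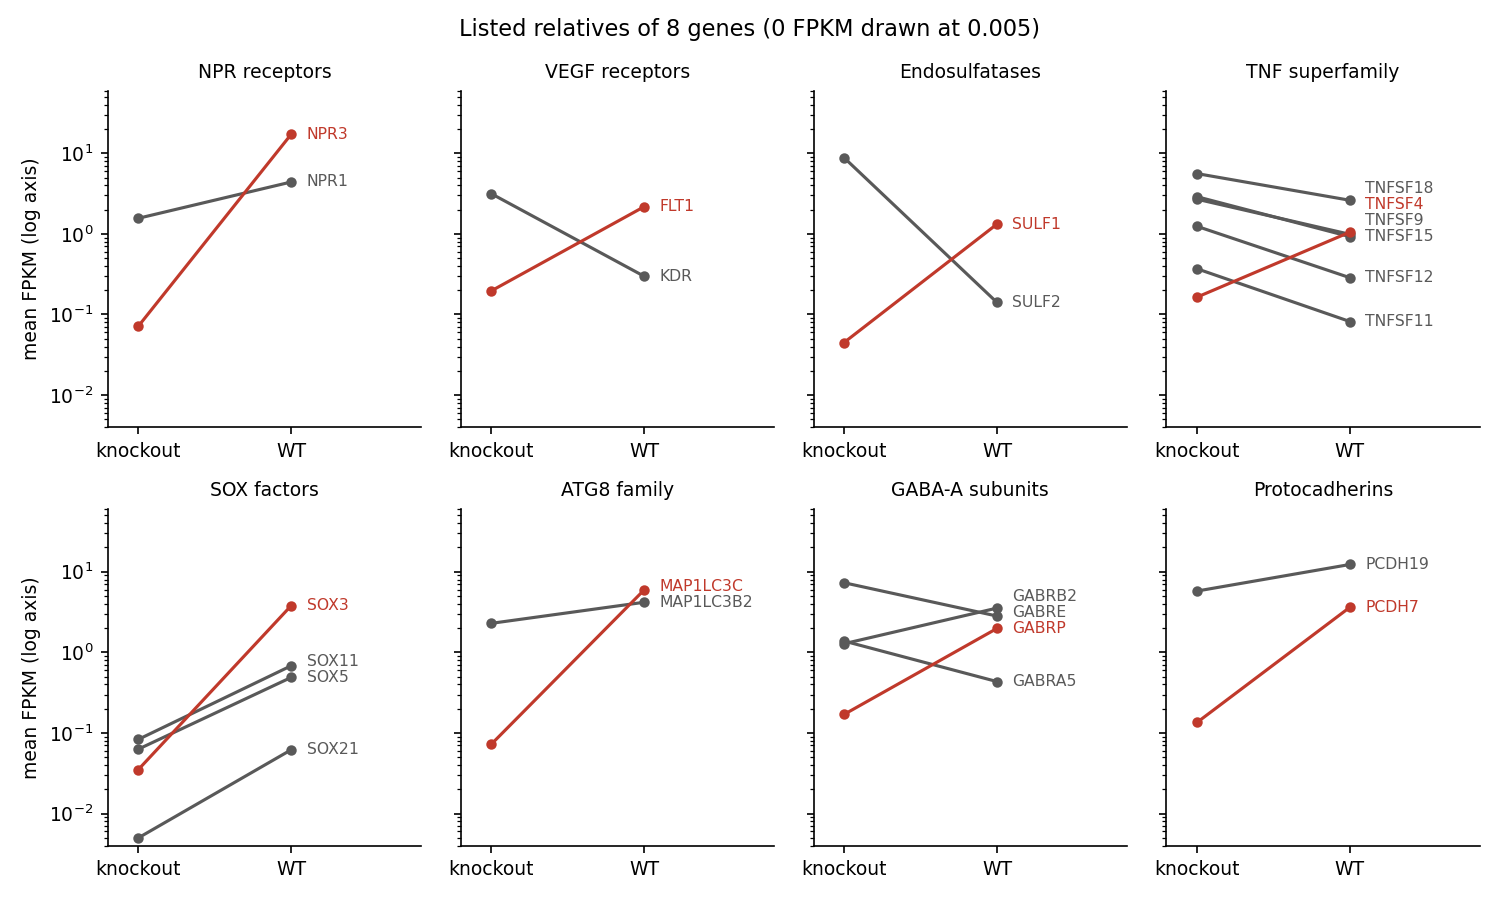
Mean FPKM in the BRCA1 knockout and BRCA1 WT lines (log axis) of 8 of the genes (red) and of the members of their gene families that had a row (grey), with SOX21, listed at 0 in the knockout line, drawn at 0.005. The lines cross for FLT1 and KDR, and for SULF1 and SULF2, and the 4 listed SOX genes all run upward toward the WT line.

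The nuclear and signalling genes included factors of development. SOX3 (ENSG00000134595, chromosome X, 140502985 to 140505116, minus strand), a single-exon transcription factor of neural progenitors and the pituitary, had 0.0352 FPKM in the knockout line and 3.80 FPKM in the WT line, a ratio of 108. For SOX3 the authors' deposited table lists a log2 fold change of -6.42 and an adjusted p of 4.44e-21. Of 19 SOX genes annotated 4 had a row, and all were lower in the knockout line, beside 46.5% of all listed genes. SOX3 is 1 of these 4, and the rule fixed its direction. The others were SOX11 at 0.0833 against 0.682 FPKM, SOX5 at 0.0630 against 0.489 and SOX21, listed at 0 against 0.0619, so SOX3 was the single one above 1 FPKM in either line.

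RUNX1T1, a transcriptional corepressor known as ETO from a leukaemia fusion, had 0.0579 FPKM in the knockout line and 1.83 FPKM in the WT line. For RUNX1T1 the authors' deposited table lists a log2 fold change of -4.37 and an adjusted p of 8.26e-15. ESRRG, an orphan nuclear receptor that drives oxidative metabolism genes, had 0.182 against 1.09 FPKM. KHDRBS2, an RNA-binding protein that regulates splicing in neurons, had 0.194 against 1.07 FPKM, the smallest ratio of the 32. For the families of these 3 genes no other member had a row.

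LIX1 (ENSG00000145721, chromosome 5, 97091867 to 97142753, minus strand), known from limb and gut mesenchyme development in the chick, had 0.00615 FPKM in the knockout line and 2.79 FPKM in the WT line. Its ratio of 453 was the second after that of FLRT2. For LIX1 the authors' deposited table lists a log2 fold change of -7.96 and an adjusted p of 4.47e-25. LIX1L, its relative, had no row. NYAP2, a neuronal adaptor of PI3 kinase, had 0.138 against 1.01 FPKM, the lowest WT level of the 32.

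Several of the genes are best known from neurons, KIF5C, KHDRBS2 and NYAP2 among them, so neuronal markers were looked at beside them. Of 10 such markers 5 had a row, of which 3 were lower in the knockout line and 2 higher. NCAM1 had 5.40 FPKM in the knockout line against 21.3, MAP2 1.09 against 4.23 and SNAP25 0.639 against 2.68. TUBB3 was higher, at 42.9 against 14.7 FPKM, and RBFOX3 was listed at 0.0406 FPKM against 0. The neuronal list thus had no common direction. None of 10 leukocyte markers had a row, so their levels are not analysed here. Of 10 fibroblast markers 4 had a row, 3 lower in the knockout line and 1 higher. COL1A2, a chain of type I collagen, had 10.5 FPKM in the knockout line against 97.3, and MFAP5, a microfibril protein, 0.515 against 2.71. PDGFRA was listed at 0 against 0.0216 FPKM and POSTN, the higher one, at 0.118 against 0. Mesenchymal genes outside that list were divided. THY1 (17.8 FPKM against 4.75), MMP2 (6.30 against 0.264) and TWIST2 (5.18 against 0.259) were higher in the knockout line, and FBN1 (0.891 against 2.99) was lower. Of 8 mesothelial markers 2 had a row, UPK3B at 2.37 against 10.9 FPKM and CALB2 at 0.923 against 0.0474. The part of cells of these kinds in the values of the 32 was not tested.

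Among genes of autophagy, chaperones, motors and muscle, MAP1LC3C had the second highest WT level of all 32. MAP1LC3C (ENSG00000197769, chromosome 1, 241995490 to 241999073, minus strand) encodes LC3C, one of the ubiquitin-like ATG8 proteins that are coupled to lipid on the autophagosome membrane and recruit cargo. It had 0.0724 FPKM in the knockout line and 5.94 FPKM in the WT line, a ratio of 82.0. For MAP1LC3C the authors' deposited table lists a log2 fold change of -6.27 and an adjusted p of 3.08e-16. Of 35 autophagy genes on a list chosen in the same way as the endothelial one, 3 had a row. MAP1LC3B2 was lower at 2.29 against 4.18 FPKM, but it is a near-identical copy of MAP1LC3B and reads of either can be counted to the other. ATG9B was higher at 0.274 against 0.127 FPKM. The other names on the list had no row. The list is not complete, and autophagy genes outside it were not counted. PIK3C3 and RUBCNL are such genes, at 5.29 against 13.7 FPKM and 1.82 against 6.64. PIK3C3 lies on chromosome 18, which the rule leaves out, and the part of position in its value was not tested.

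HSPA6, an HSP70 chaperone that is strongly induced by heat and proteotoxic stress, had 0.0118 FPKM in the knockout line and 1.14 FPKM in the WT line, a ratio of 96.9. It was the single 1 of 13 HSP70 family genes with a row, and its close copy, the pseudogene HSPA7, lies near it, so its value is uncertain. MYBPC2, the myosin-binding protein C of fast skeletal muscle, had 0.179 against 3.63 FPKM. For MYBPC2 the authors' deposited table lists a log2 fold change of -4.44 and an adjusted p of 2.03e-15. Of 8 smooth muscle markers 1 had a row, LMOD1, at 0.0240 against 0.193 FPKM. KIF5C, a kinesin heavy chain of axonal transport, had 0.129 against 1.15 FPKM.

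There were 3 enzymes of sugar and lipid metabolism. GAL3ST3, a sulfotransferase that adds sulfate to galactose on glycans, had 0.104 FPKM in the knockout line and 2.78 FPKM in the WT line, a ratio of 26.6. For GAL3ST3 the authors' deposited table lists a log2 fold change of -4.63 and an adjusted p of 2.24e-11. GYG2, a glycogenin that primes glycogen synthesis in the liver, had 0.0454 against 1.40 FPKM. For GYG2 the authors' deposited table lists a log2 fold change of -4.48 and an adjusted p of 3.16e-10. CYP4X1, a cytochrome P450, had 0.113 against 1.07 FPKM. No other gene of the GAL3ST or glycogenin families had a row. CYP4B1, a relative of CYP4X1 that lies 204256 bases from it, was lower too, at 0.795 against 4.45 FPKM.

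The remaining 6 have less settled roles. FAM189A1 had 0.0342 FPKM in the knockout line and 2.30 FPKM in the WT line, a ratio of 67.3, and overlaps NSMCE3 on its strand. For FAM189A1 the authors' deposited table lists a log2 fold change of -5.82 and an adjusted p of 3.61e-24. RTBDN, a riboflavin-binding protein of the retina, had 0.184 against 1.56 FPKM and overlaps HOOK2 on its strand. For RTBDN the authors' deposited table lists a log2 fold change of -2.62 and an adjusted p of 0.0119. TEX36 had 0.0608 against 1.32 FPKM, STUM, a membrane protein that is needed for mechanical sensing in Drosophila, 0.0607 against 1.06, and the annexin ANXA9 0.165 against 1.03. Relatives of these genes with a row were higher in the knockout line: FAM189B at 21.6 against 11.3 FPKM, and the annexins ANXA8 at 0.513 against 0.0993 and ANXA8L1 at 1.40 against 0.236. FAM189B would turn lower with the centred scale named above. An assembled locus without a gene ID, XLOC_035575, had 0.145 against 1.29 FPKM. It lies within the span of SYT1, a synaptic vesicle calcium sensor, which was itself higher in the knockout line at 2.60 against 0.912 FPKM. The strand of XLOC_035575 is not in the table.

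The genes were spread over the genome. Chromosome 1 held 7 of the 32, out of 148 listed genes open to the rule there, chromosome 5 held 4 of 58, chromosome 8 held 3 of 48 and chromosome X 3 of 63. Of these listed genes, 35.1% were lower in the knockout line on chromosome 1, 65.5% on 5, 39.6% on 8 and 69.8% on X. Among genes open to the rule, the share ran from 2.74% on chromosome 9 to 78.2% on chromosome 6. The value for chromosome 9 covers only the part that the rule keeps, so it does not describe the whole chromosome. No pair of the 32 lay within 1 Mb of each other. Within 1 Mb, 20 of the 32 had at least 1 other listed gene. These 36 neighbours were 18 lower and 18 higher in the knockout line, a share of 50.0% lower beside 46.5% in the whole table. The whole table also counts the positions that the rule left out, where none of these neighbours lies, so the sets are not alike. Of the 64 protein-coding genes directly next to the 32 on either side, 57 had no row.

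Some neighbours moved the same way and some the other way. KCNIP1, a potassium channel-interacting protein next to GABRP, had 1.48 FPKM in the knockout line against 23.9. LNPEP, next to LIX1, had 8.34 against 19.4 FPKM. SLCO5A1, which lies 6131 bases beyond SULF1, was higher in the knockout line at 0.605 against 0.182 FPKM. All 7 listed neighbours of GAL3ST3 were higher, with FOSL1 at 6.41 against 2.17 FPKM and SART1, the nearest, at 18.5 against 9.23. SART1 would turn lower with the centred scale named above, as would FARSA, a neighbour of RTBDN at 69.9 against 36.2 FPKM.

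**Figure D4:**
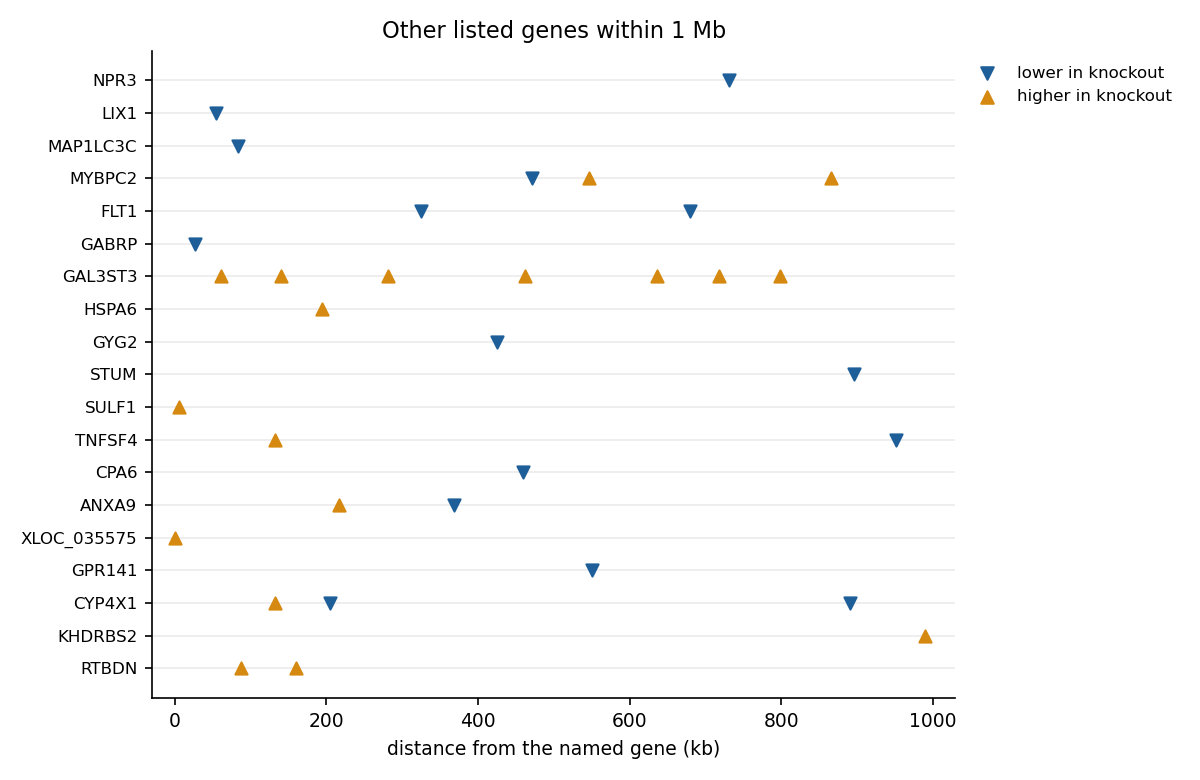
Distance in kb from each of 19 of the genes to every other listed gene within 1 Mb, as blue downward triangles where that neighbour was lower in the BRCA1 knockout line and orange upward triangles where it was higher. Of the 33 neighbours drawn, 15 were lower and 18 higher, and the 7 around GAL3ST3 are all higher, in the values as deposited.

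The loci of the 32 genes ranged in span from 2132 bases for SOX3 to 634510 for ESRRG. They had a median span of 82113 bases, against 35964 for the other listed genes, and 16 of the 32 spanned over 100 kb, a share of 50.0% beside 26.1%. Their longest annotated transcripts had a median length of 3593 bases against 3742. FPKM is scaled to transcript length and not to the span. These differences were not tested.

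Promoter windows of 300 bases, from 250 before to 50 after the start, were at hand in RefSeq for 22 of the 32 genes. A window was called CpG-rich where its GC content was at least 50% and its CpG pairs at least 0.6 of the number expected from its C and G content. By this measure 12 of the 22 were CpG-rich, a share of 54.5%, beside 66.0% of 1307 other listed genes and 47.1% of 27305 RefSeq windows, 1 a gene. NPR3 and EDIL3 lie just above the limit, and with a limit of 0.75 in place of 0.6 the shares were 31.8%, 49.8% and 37.0%. The median ratio of observed to expected CpG was 0.61 for the 22 genes, 0.75 for the other listed genes and 0.58 for all windows. Other listed genes that were lower without BRCA1, had 1 to under 5 FPKM in the WT line and stayed at 0.2 FPKM or above in the knockout line gave 63.0% of 146. The 22 with a window among genes that meet the mirrored rule, near silent in the WT line and at 1 FPKM or more in the knockout line, gave 45.5%.

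Promoters at both ends of the range were among the 22. The highest ratios were those of TMEM47 at 0.97, HSPA6 at 0.92 and CYP4X1 at 0.91, and the lowest those of ANXA9 at 0.19, TEX36 at 0.11 and GPR141 at 0.10. NPR3 (0.60), FLRT2 (0.73) and SOX3 (0.73) were CpG-rich, and MAP1LC3C (0.19) and TSHR (0.37) were not. Genes with large ratios thus had promoters of either kind. ESRRG and NPR3 are among 8 genes with several RefSeq starts, and the start in use in these lines cannot be read from a mean per gene. The other NPR3 window, with no GENCODE start within 100 bases, had a ratio of 0.12, so the label of NPR3 depends on the start taken. The windows of ESRRG ran from 0.0 to 0.86. Neither CYP4X1 window has a GENCODE start within 100 bases. The one used has a GC content of 50.0%, at the limit, and the other has a ratio of 0.05, so that label is uncertain too.

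**Figure D5:**
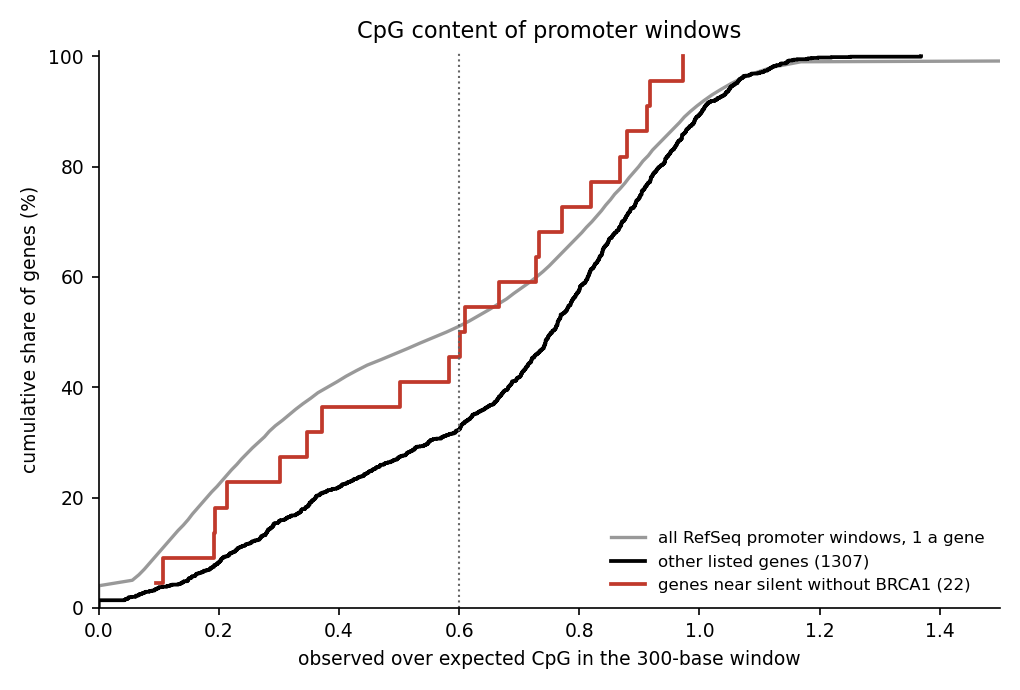
Cumulative share of genes by the ratio of observed to expected CpG in the 300-base promoter window, for the 22 genes near silent without BRCA1 that have a window (red), 1307 other listed genes (black) and all RefSeq windows (grey), with the limit of 0.6 dotted. The red curve lies above the black one over most of the range but not at the lowest ratios, with medians of 0.61 and 0.75.

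Short motifs were counted in the same windows on both strands, and none of them contains another. GGGCGG, the GC box core, was in 10 of the 22 windows (45.5%), against 67.0% of other listed genes and 44.8% of all windows. CCAAT was in 10 of 22 (45.5%), against 33.6% and 35.9%. TGACG, the core of cyclic AMP response elements, was in 8 of 22 (36.4%), among them NPR3, FLRT2 and SOX3, against 25.6% and 24.9%. The E-box CACGTG was in 2 (FLRT2 and NYAP2), the AP-1 site TGACTCA in 1 (HSPA6) and TATAAA in 2 (CYP4X1 and FLT1), against 7.36%, 4.94% and 12.1% of all windows. A match of letters is not evidence that a factor binds, and none of these motifs was in all 22 windows.

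Of 27 names on a list of DNA methylation and Polycomb repression, 2 had a row and neither is one of the 32. The list is not complete. Outside it, AEBP2 had 3.82 FPKM in the knockout line against 8.80 in the WT line, UHRF2 6.08 against 17.3 and EPOP 3.35 against 1.43. AEBP2 and UHRF2 lie in regions that the rule leaves out, and the part of position in their values was not tested. UHRF1, which guides maintenance methylation, had 21.4 FPKM in the knockout line and 12.6 in the WT line, although it would turn lower with the centred scale named above. TET1, which oxidises methylated cytosine, had 0.233 against 0.711 FPKM. Methylation itself was not measured in the values used here.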

How the data were processed

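Strand-specific total RNA libraries of 2 samples, 1 per line, are summarised in a single deposited table. Per the file headers it gives a mean FPKM per line by the authors, the authors' log2 fold change (knockout over WT) and the authors' p-value and adjusted p-value, with a test that the sources used here do not name. Of the deposited FPKM values 1193 in the knockout column and 1221 in the WT column ran past the sixth decimal, and after multiplication by 3 none did (tolerance 0.02 of that decimal), as means of 3 values with 6 decimals would. The submitters' processing notes list HISAT2, StringTie 1.3.3b and mm9, a mouse build, while gene IDs are human and 1796 of 1806 matched GENCODE release 29 (GRCh38).

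Without values per sample no test across samples was possible. Differences are log2(FPKM + 1), knockout minus WT. The members and lists were chosen with earlier results of these data known. Of the 32 genes 31 were described and 1 is not reported here, with the authors' fold and adjusted p for those described among the 20 of highest WT level, LIX1, FLRT2 and MAP1LC3C among them. Families, roles and neuronal gene choices were made after the values were seen. Where RefSeq gives several promoter windows for a gene, the one with most GENCODE starts within 100 bases was kept, then the nearest to a start, a rule settled after the data were seen; 10 genes had no window, among them LIX1, FAM189A1, MYBPC2, RUNX1T1, GAL3ST3, STUM, SULF1, CPA6 and XLOC_035575. Scripts were tested on simulated data. Alternatives covered thresholds, pseudocounts, scaling, left-out rows, promoter windows and distances. Tools were pandas 2.3.3, numpy 2.4.6, matplotlib 3.10.9 and scipy 1.17.1 under Python 3.11.15.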

Additional observations from a re-analysis of the deposited data

How the results depend on the processing

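The number of genes depends on the limits. It was 15 with a knockout limit of 0.1 FPKM and 82 with 0.5, 89 with a WT limit of 0.5 FPKM and 12 with 2. With the knockout column centred on the median ratio it was 63. Centring shifts every knockout FPKM by -1.01 on the log2 scale. The median log2(FPKM + 1) difference over the whole table shifts by -0.21. The number of genes stayed within 1.5 times of 32 with equal totals (40), with an adjusted p of at most 0.01 (31) and with no rows left out (43). The median difference of -1.18 was -3.22 with a pseudocount of 0.1, -4.25 with 0.01, -4.18 by the authors' log2 fold change, -2.00 for genes at 2 FPKM or more in the WT line, -1.20 with equal totals and -1.23 when centred; the pseudocount shrinks low values by construction. CpG-rich promoters were 31.8% of 22 with an observed over expected limit of 0.75. They were 40.9% in the 250 bases before the start alone, and, added after seeing the data, 59.1% when any window of a gene counts and 52.4% among windows with a GENCODE start within 100 bases. Within 250 kb, 33.3% of neighbours were lower. No paired analysis was possible because the groups share a single replicate number and the table holds means. Leaving out a replicate was not possible for the same reason. With depth unknown, a value of a few thousandths of an FPKM cannot be told from 0.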

Other observations

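Near silence without BRCA1 was wider than the 32 genes, but mostly at lower levels in both lines. Of the 839 listed genes that were lower in the knockout line, 282 were under 0.2 FPKM there, and 239 of those were also under 1 FPKM in the WT line. The mirrored rule, under 0.2 FPKM in the WT line and at least 1 FPKM in the knockout line with the same rows left out, gave 38 genes, so near silence in a single line was found in both directions.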
